A study of Mus musculus with 6 samples.

Results

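Iron handling was followed through 10 genes in the RNA sequencing of mouse bone marrow-derived macrophages (BMDMs). The genes were listed by name, with no threshold on their values, and are the transferrin receptor Tfrc, the metal importers Slc39a14 and Slc11a2, the phagosomal transporter Slc11a1, the ferritin subunits Fth1 and Ftl1, the iron exporter Slc40a1, the metallothioneins Mt1 and Mt2, and the zinc exporter Slc30a1. They are 10 of the 54446 genes in the deposited table, and all 10 had at least 10 counts in every library.

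BMDMs were grown from the marrow of male BALB/c mice aged 6 to 8 weeks in medium with L929-conditioned supernatant for 7 days. They were left unpolarized (M0), given IFN-γ at 20 ng/mL plus LPS at 50 ng/mL for 24 hours (M1), or given IL4 at 20 ng/mL for 24 hours (M2). Each state was sequenced with vehicle (DMSO, called control here) and with regorafenib, a multikinase inhibitor, at 1 µM, given 1 hour before polarization in M1 and M2. When M0 cells received the drug is not given in the sources used here, nor is the number of mice behind a culture. There were 6 libraries, with 1 library per condition, so no difference between a pair of libraries has a replicate check. Differences are given as log2 ratios of scaled counts with a 95% interval that covers counting error only, and "called" means an absolute log2 ratio of at least 1.

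Macrophages take up iron bound to transferrin through Tfrc, through metal importers and by engulfing red cells. They store it inside ferritin, a shell of heavy chains (Fth1), which oxidize iron, and light chains (Ftl1). They release it through ferroportin (Slc40a1), the only known exporter of non-heme iron in mammals. Cells read their iron through iron regulatory proteins, which bind hairpins called iron-responsive elements (IREs) when iron is scarce. A hairpin ahead of the coding sequence then blocks translation, whereas hairpins behind it protect the mRNA. Metallothioneins are small cysteine-rich proteins that bind zinc and copper, and their genes and Slc30a1 are targets of the metal-responsive factor MTF-1, which binds metal response elements (MREs) in promoters.

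IREs are shown because iron regulatory proteins act on the mRNAs that carry them, and only the canonical form was searched for. The reference transcripts (Gencode M21, GRCm38) were searched for the canonical hairpin, a C, 5 bases, the loop CAGTGN and 5 bases pairing with the first 5, G-T pairs allowed. It was found in 4 of the 10 genes and in 1.34% of 21901 coding genes. Fth1, Ftl1 and Slc40a1 held it ahead of the coding sequence, in the 5′ UTR, and Tfrc held 4 copies behind it, in the 3′ UTR. The capitals mark the bulged C and the loop.
Fth1: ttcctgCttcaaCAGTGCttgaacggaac
Ftl1: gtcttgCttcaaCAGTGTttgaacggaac
Slc40a1: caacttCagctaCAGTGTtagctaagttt
Tfrc 1: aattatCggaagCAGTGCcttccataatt
Tfrc 2: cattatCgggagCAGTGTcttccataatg
Tfrc 3: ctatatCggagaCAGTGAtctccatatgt
Tfrc 4: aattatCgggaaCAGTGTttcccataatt

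The Fth1 hairpin is at chr19:9982732-9982760 on the plus strand, that of Ftl1 at chr7:45459779-45459807 on the minus strand and that of Slc40a1 at chr1:45925465-45925493 on the minus strand. The Tfrc copies are at chr16:32631219-32631247, chr16:32631598-32631626, chr16:32631663-32631691 and chr16:32631710-32631738 on the plus strand. For Fth1, 4 of 5 coding transcripts held the hairpin. Of the coding transcripts of Slc40a1, 1 of 4 did, and gene-level counts do not tell those transcripts apart. No match says only that these letters are not in the transcripts searched, as for Slc11a2, Slc11a1, Slc39a14, Mt1, Mt2 and Slc30a1. A hairpin with an unpaired base in its stem would be missed, so no match does not mean that a gene lacks an IRE.

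MRE-like letters are shown for the genes that share MTF-1. The table of RefSeq promoters (GRCm38.p6, 250 bases before to 50 after each start) held 7 of the 10 genes. It was searched for TGCACNC and TGCGCNC, the core of the MRE with either purine, on both strands. The Mt2 promoter held 4 matches, Mt1 held 3 and Slc30a1 held 2. Of 32851 promoters, 25.7% held a match, 7.11% held at least 2, 1.97% at least 3 and 0.517% at least 4. Each match is given in capitals in the direction in which it reads. Its number is that of its most upstream base on the gene's strand, counted from the start in the RefSeq table, which is not the Gencode start.
Mt2 at -223: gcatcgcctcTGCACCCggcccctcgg
Mt2 at -128: gcagacccttTGCGCTCagctcctttg
Mt2 at -50, opposite strand: ggacagagccTGCACACgccctccccc
Mt2 at 5, opposite strand: cccctgggccTGCGCACgacccgaatt
Mt1 at -23: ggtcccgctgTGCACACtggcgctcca
Mt1 at 3: cagggagctcTGCACTCcgcccgaaaa
Mt1 at 21: gcccgaaaagTGCGCTCggctctgcca
Slc30a1 at -43, opposite strand: aactttgcttTGCACTCggaacccccg
Slc30a1 at 31, opposite strand: ccgcggcgacTGCGCTCggcccggagg

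These windows of 27 bases are at chr8:94172385-94172411, chr8:94172480-94172506, chr8:94172558-94172584 and chr8:94172612-94172638 for Mt2, at chr8:94179056-94179082, chr8:94179081-94179107 and chr8:94179099-94179125 for Mt1, and at chr1:191906728-191906754 and chr1:191906801-191906827 for Slc30a1. Mt2 (chr8:94172664-94173568) and Mt1 (chr8:94179082-94180327) lie next to each other on the plus strand by Gencode, whose Mt2 start is downstream of all 4 Mt2 windows. The Tfrc table entry with the upstream start held 2 matches, which overlap on opposite strands, and Fth1, Ftl1 and Slc11a1 held 0. The antioxidant response core TGACNNNGC was found once each for Mt2 and Slc30a1 and in 12.4% of all promoters. The STAT-type palindrome TTCNNNGAA was found in none of these 7 genes' promoters and in 8.3% of all. A match is a description of letters, and no binding was measured.

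Libraries held 25359309 to 34898342 counts, and TMM factors ran from 0.820 to 1.12, lowest in the 2 M1 libraries. Scaling by total counts instead shifted every log2 ratio of M1 to M0 by -0.44 in control and by -0.41 under regorafenib, and that of M1 to M2 by -0.35. State markers matched the labels. The summed level of 6 M1 markers was 17977 and 12349 CPM (TMM-scaled counts in 1000000) in the M1 libraries and 39.8 to 97.4 CPM elsewhere, and that of 6 M2 markers was 1353 and 659 CPM in M2 and 5.23 to 33.9 CPM elsewhere. Single markers went both ways with regorafenib. In M1, Nos2, most of the sum (410649 and 221627 counts, control first), and Irf1 were lower. Il12b (10147 and 26829 counts), Cxcl9, Cxcl10 and Cd40 were higher. In M2, Arg1 (21798 and 1017 counts), Mrc1 and Mgl2 were lower, and Retnla (941 and 3348 counts), Chil3 and Ccl24 were higher. In bulk RNA, fewer cells of a type and less RNA per cell cannot be told apart.

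**Figure D1:**
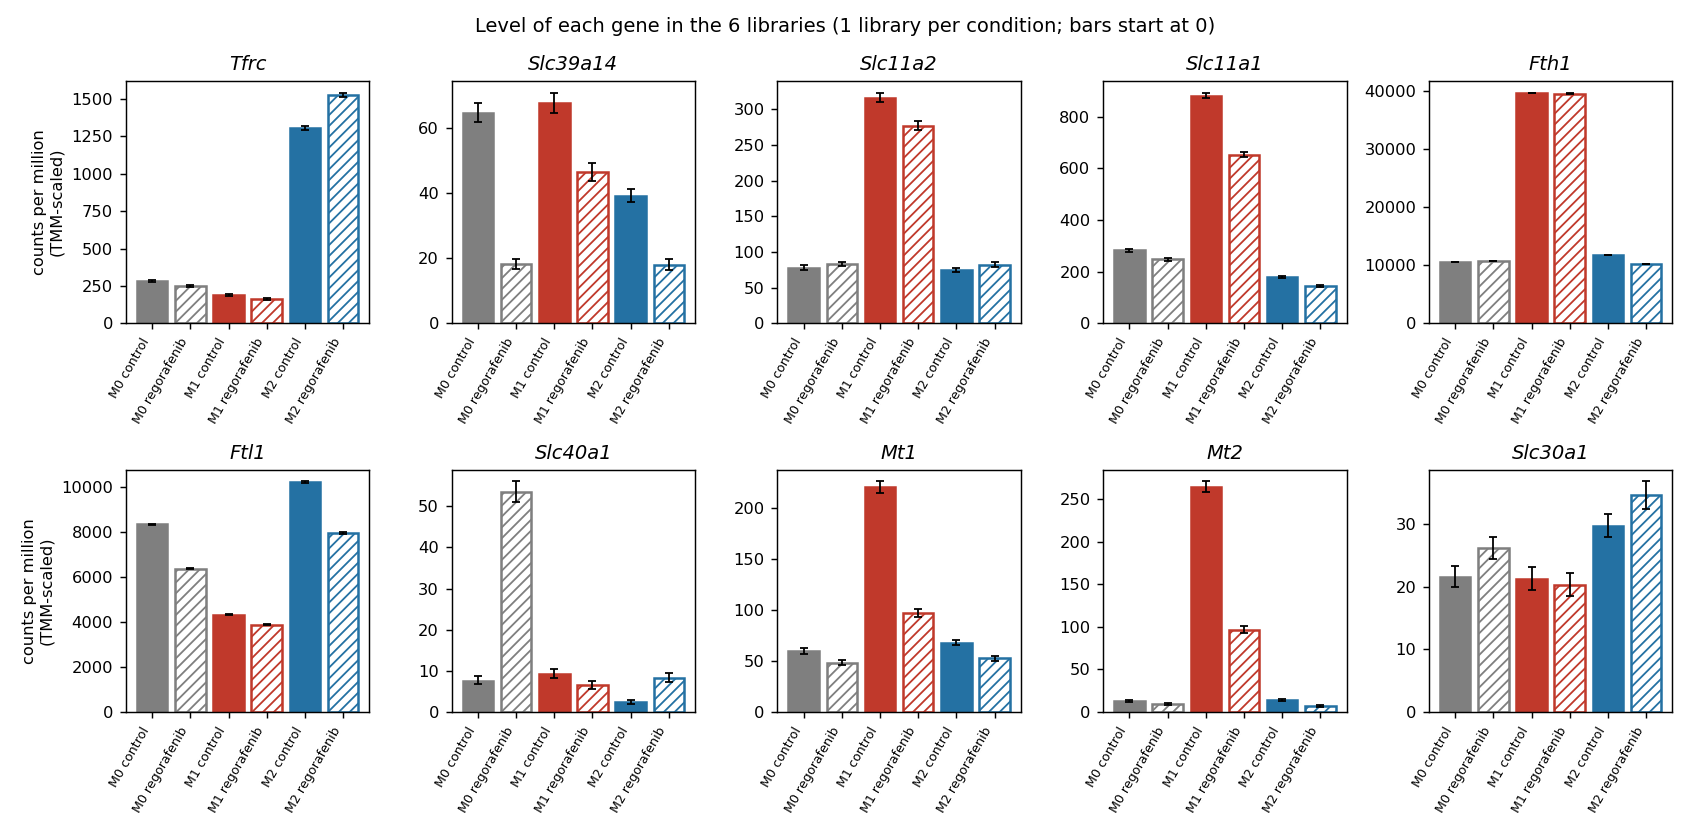
TMM-scaled CPM of each gene in the 6 libraries, with filled bars for control and hatched bars for regorafenib, and 95% counting intervals as error bars. Fth1, Slc11a1, Slc11a2, Mt1 and Mt2 were highest in the M1 libraries, Tfrc in the M2 libraries and Slc40a1 in M0 with regorafenib (53.5 CPM).

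Transferrin receptor mRNA differed mainly with IL4. Tfrc stood at 284 CPM in M0 control, 251 in M0 regorafenib, 188 in M1 control, 161 in M1 regorafenib, 1304 in M2 control and 1528 in M2 regorafenib. Both M2 libraries were above the other 4, and the highest level was 9.47-fold the lowest. The log2 ratio of M2 to M0 was 2.20 (2.17 to 2.23) without the drug and 2.61 (2.57 to 2.64) with it. In M1 it was -0.59 (-0.65 to -0.54) and -0.64 (-0.69 to -0.58). Regorafenib against control gave -0.18 in M0 (-0.22 to -0.13), -0.22 in M1 (-0.28 to -0.16) and 0.23 in M2 (0.21 to 0.25), so that Tfrc was slightly lower with the drug in M0 and M1 and slightly higher in M2.

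Slc39a14 (ZIP14), which imports iron that is not bound to transferrin, as well as zinc and manganese, was lower with regorafenib in every state. Control and regorafenib had 1984 and 600 counts for M0, 1745 and 1115 for M1, then 1427 and 504 for M2, or 64.6, 18.2, 67.5, 46.3, 39.1 and 18.0 CPM in that order. Within each state the counting intervals of the control and drug levels did not overlap. The log2 ratio to control was -1.83 in M0 (-1.96 to -1.69), -1.12 in M2 (-1.27 to -0.97) and -0.55 in M1 (-0.66 to -0.44). The M0 and M2 regorafenib levels could not be told apart by their counting intervals, nor could the M0 and M1 control levels. M1 was therefore close to M0 in control, with a log2 ratio of 0.06 (-0.03 to 0.16), and above it under the drug, with 1.35 (1.20 to 1.49).

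Slc11a2 (DMT1), which moves ferrous iron out of endosomes, followed IFN-γ and LPS. Its levels were 78.1 CPM in M0 control, 83.3 in M0 regorafenib, 317 in M1 control, 277 in M1 regorafenib, 74.6 in M2 control and 82.2 in M2 regorafenib. The M1 libraries stood apart, and M2 control, M0 control, M2 regorafenib and M0 regorafenib overlapped with their neighbours in that order. M1 was 4.06-fold M0 in control (log2 ratio 2.02, 1.95 to 2.09) and 3.33-fold under regorafenib (1.73, 1.67 to 1.80). The drug ratios were small, at 0.09 in M0, -0.19 in M1 and 0.14 in M2.

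Slc11a1 (NRAMP1), the relative of Slc11a2 that pumps iron and manganese out of the phagosome, was also highest in M1. BALB/c mice carry a loss-of-function allele of it. It reached 282 CPM in M0 control, 248 in M0 regorafenib, 882 in M1 control, 653 in M1 regorafenib, 179 in M2 control and 145 in M2 regorafenib. No pair of neighbouring levels overlapped, and the regorafenib library was the lower one in each state. M1 against M0 gave 1.64 (1.61 to 1.68) in control and 1.39 (1.35 to 1.43) with the drug, whereas M2 against M0 gave -0.66 (-0.70 to -0.61) and -0.78 (-0.83 to -0.72). Regorafenib against control was -0.18 in M0, -0.44 in M1 and -0.30 in M2. Per kilobase of transcript, Slc11a1 exceeded Slc11a2 4.73-fold in M0 control and 2.31-fold in M2 regorafenib, the ends of the range.

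Ferritin subunits went apart under IFN-γ and LPS. Fth1 had 10563 CPM in M0 control, 10738 in M0 regorafenib, 39628 in M1 control, 39472 in M1 regorafenib, 11720 in M2 control and 10222 in M2 regorafenib. It was the gene with the most counts in both M1 libraries, where it took 3.25% and 3.33% of all counts, against 1.13% to 1.23% in the other 4. M1 was 3.75-fold M0 in control (log2 ratio 1.91, 1.90 to 1.91) and 3.68-fold with the drug (1.88, 1.87 to 1.88). The regorafenib and control levels were near each other, with ratios of 0.02 in M0, -0.0057 in M1 and -0.20 in M2. Counting error is very small at this depth, and the spread between cultures was not measured.

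Ftl1 ran the other way. It had 8353 CPM in M0 control, 6385 in M0 regorafenib, 4337 in M1 control, 3878 in M1 regorafenib, 10240 in M2 control and 7978 in M2 regorafenib. Both M1 libraries were the lowest, and the drug library was below its control in each state. The log2 ratio of M1 to M0 was -0.95 (-0.96 to -0.94) in control and -0.72 (-0.73 to -0.71) with the drug. That of regorafenib to control was -0.39 in M0, -0.16 in M1 and -0.36 in M2. Of the 100-base words of the Ftl1 transcript, 78.6% also occur in other genes, 59.3% in the pseudogene Ftl1-ps1, so the level of Ftl1 is uncertain. Ftl1-ps1 had, control first, 5417 and 4611 counts for M0, 2628 and 4767 for M1, then 8369 and 5006 for M2. Fth1 shares 0.964% of its words with another gene.

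As a ratio inside each library, which needs no scaling, Fth1 per kilobase over Ftl1 per kilobase was 1.32 in M0 control, 1.75 in M0 regorafenib, 1.19 in M2 control and 1.34 in M2 regorafenib. In M1 it was 9.52 (9.46 to 9.58) in control and 10.6 (10.5 to 10.7) with regorafenib. By these counts, ferritin mRNA in M1 was mostly heavy chain. In every state the ratio was higher with the drug than without it. The 2 subunits together made up 1.92% to 2.30% of counts in M0 and M2 and 3.61% to 3.66% in M1.

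Ferroportin mRNA had the largest drug difference of the 10 genes, and it went opposite ways. Control and regorafenib libraries held 235 and 1764 counts of Slc40a1 for M0, 240 and 156 for M1, then 86 and 233 for M2, or 7.65, 53.5, 9.29, 6.47, 2.36 and 8.33 CPM. M0 with regorafenib stood far above the other 5 libraries and M2 control lay below them, a 22.7-fold span. M1 regorafenib, M0 control, M2 regorafenib and M1 control overlapped with their neighbours. Regorafenib was 6.99-fold above control in M0 (log2 ratio 2.81, 2.61 to 3.01) and 3.54-fold above it in M2 (1.82, 1.46 to 2.20). In M1 it was below control, at -0.52 (-0.82 to -0.22).

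Polarization of Slc40a1 therefore read differently with and without the drug. IL4 against M0 gave -1.70 (-2.07 to -1.34) in control and -2.68 (-2.89 to -2.49) under regorafenib. M1 against M0 gave 0.28 (0.01 to 0.55) in control, a direction that turned to -0.16 when libraries were scaled by total counts, and -3.05 (-3.29 to -2.81) under regorafenib. The difference between those M1 values was -3.33 (-3.68 to -2.98), and all of these comparisons under the drug share the M0 regorafenib library. Export set against uptake, as Slc40a1 over Tfrc per kilobase, was 0.0391 and 0.309 for M0, 0.0718 and 0.0582 for M1, then 0.00262 and 0.00791 for M2, control first. It was lowest in M2 control and highest in M0 regorafenib.

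**Figure D2:**
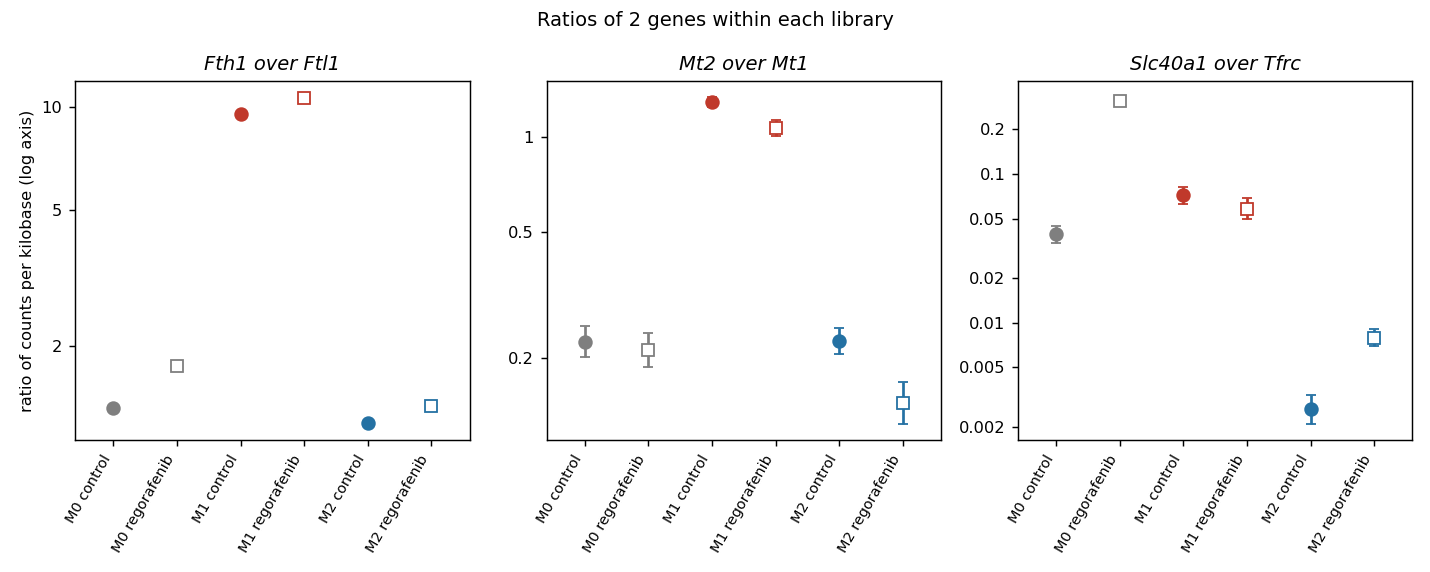
Ratio of counts per kilobase of 2 genes inside each library on a log axis, filled circles for control and open squares for regorafenib, with 95% counting intervals. Fth1 over Ftl1 was 9.52 and 10.6 in M1 and at most 1.75 elsewhere, Mt2 over Mt1 was 1.29 and 1.07 in M1 and at most 0.225 elsewhere, and Slc40a1 over Tfrc ran from 0.00262 in M2 control to 0.309 in M0 regorafenib.

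Metallothionein mRNA was highest in M1 and was lower there with regorafenib. Mt2 had 382 counts in M0 control, 313 in M0 regorafenib, 6841 in M1 control, 2330 in M1 regorafenib, 522 in M2 control and 197 in M2 regorafenib. These were 12.4, 9.50, 265, 96.7, 14.3 and 7.04 CPM, a 37.6-fold span. Only the M0 and M2 control levels overlapped. M1 was 21.3-fold M0 in control (log2 ratio 4.41, 4.26 to 4.56) and 10.2-fold with the drug (3.35, 3.18 to 3.52). Regorafenib against control gave -1.45 in M1 (-1.52 to -1.39), -1.02 in M2 (-1.27 to -0.78) and -0.39 in M0 (-0.61 to -0.17). The M2 value lay at the threshold, and was -0.95 with total-count scaling and -0.98 with upper-quartile scaling.

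Mt1, its neighbour on chromosome 8, was likewise highest in M1 control and next highest in M1 regorafenib, with a smaller span. It stood at 59.5 CPM in M0 control, 48.3 in M0 regorafenib, 220 in M1 control, 97.4 in M1 regorafenib, 68.1 in M2 control and 52.5 in M2 regorafenib, and the highest level was 4.57-fold the lowest. M1 against M0 was 1.89 (1.81 to 1.97) in control and 1.01 (0.92 to 1.11) under regorafenib. The log2 ratio to control was -1.18 in M1 (-1.25 to -1.11), -0.37 in M2 (-0.47 to -0.28) and -0.30 in M0 (-0.40 to -0.20). The lowest libraries were in the other order, as M2 against M0 under regorafenib was 0.12 (0.02 to 0.23) for Mt1 and -0.43 (-0.70 to -0.17) for Mt2. Mt2 over Mt1 per kilobase was, control first, 0.225 and 0.211 for M0, 1.29 and 1.07 for M1, then 0.225 and 0.144 for M2. Mt2 was thus the lesser of the pair outside M1 and slightly the greater within it.

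Slc30a1 (ZnT1), which exports zinc from the cell and shares MTF-1 with the metallothioneins, showed little difference between libraries. Its levels were 21.6 CPM in M0 control, 26.2 in M0 regorafenib, 21.3 in M1 control, 20.2 in M1 regorafenib, 29.7 in M2 control and 34.6 in M2 regorafenib. The whole span was 1.71-fold, the smallest of the 10 genes. M1 against M0 in control was -0.02 (-0.19 to 0.14), with a range of -0.46 to 0.11 over the scalings, while M2 against M0 was 0.46 (0.32 to 0.60). The drug ratio was 0.28 in M0, -0.07 in M1 and 0.22 in M2. Of its 100-base words, 7.19% lie in an antisense gene that had 16 to 31 counts, and 27.4% of those of Mt2 lie in an antisense gene that had 0 to 8 counts.

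Regorafenib against control in M0 called 1 of the 10 genes higher (Slc40a1) and 1 lower (Slc39a14), where 9.59% of 14917 genes were called higher and 11% lower. In M1 it called 0 higher and 2 lower (Mt1 and Mt2), beside 2.49% and 4.16% of all genes. In M2 it called 1 higher (Slc40a1) and 2 lower (Mt2 and Slc39a14), beside 6.73% and 5.43%. The median log2 ratio of the 10 genes was -0.18 in M0, -0.33 in M1 and -0.25 in M2, against -0.0074, -0.016 and -0.015 over all genes. Slc11a1, Ftl1, Mt1, Mt2 and Slc39a14 were lower with the drug in all 3 states, but Slc11a1 and Ftl1 were called in none of them. The share of all genes lower in all 3 states was not taken, so this is no result about the 10 genes as a group.

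**Figure D3:**
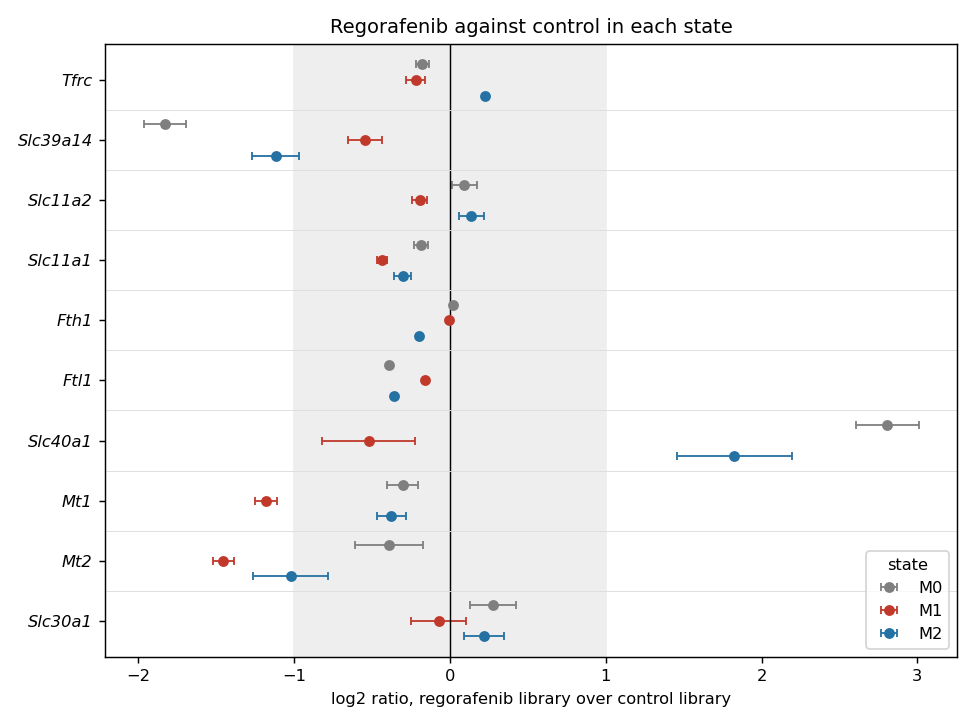
Log2 ratio of the regorafenib library to the control library for each gene in M0, M1 and M2, with 95% counting intervals; the grey band spans an absolute log2 ratio under 1. Slc40a1 lies outside it to the right in M0 and M2 (2.81 and 1.82), Slc39a14 to the left in M0 and M2 (-1.83 and -1.12), Mt1 to the left in M1 (-1.18), and Mt2 to the left in M1 and, at its edge, in M2 (-1.45 and -1.02).

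M1 against M0 in control called 5 of the 10 genes higher and 0 lower, where 17.2% of all genes were called higher and 19.8% lower. The 5 were Fth1, Slc11a1, Slc11a2, Mt1 and Mt2. The median was 0.96 for the 10 genes and -0.05 for all genes. Under regorafenib, M1 against M0 called 6 higher, the former 5 and Slc39a14, and 1 lower (Slc40a1), beside 16.6% and 21.6% of all genes. With total-count scaling Ftl1 (-1.39) and Tfrc (-1.04) were also called lower in control. Under regorafenib the same scaling ended the calls of Slc11a1 (0.98), Mt1 (0.60) and Slc39a14 (0.93) and called Ftl1 (-1.13) and Tfrc (-1.05) lower. It also turned Slc39a14 to -0.38 in the control comparison. Of all genes called, it lowered the share called higher from 46.4% to 30.2% in control and from 43.5% to 28.4% under regorafenib.

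M2 against M0 in control called 1 of the 10 genes higher (Tfrc) and 1 lower (Slc40a1), beside 4.95% and 8.03% of all genes. It did the same under regorafenib, beside 4.99% and 5.5%. The 10 genes had a median of 0.17 in control, against 0.0012 for all genes, and of -0.017 under regorafenib, against -0.026. Directly compared in control, M1 against M2 called 6 of the 10 higher and 2 lower (Ftl1 and Tfrc), beside 18% and 20% of all genes, and total-count scaling lowered the share called higher among all genes called from 47.3% to 33.5%. The largest of these were Mt2 at 4.21 (4.08 to 4.34) and Tfrc at -2.80 (-2.84 to -2.75). Slc40a1 was 3.94-fold higher in M1 than in M2 (1.98, 1.62 to 2.35). These comparisons share the control libraries and are not independent.

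**Figure D4:**
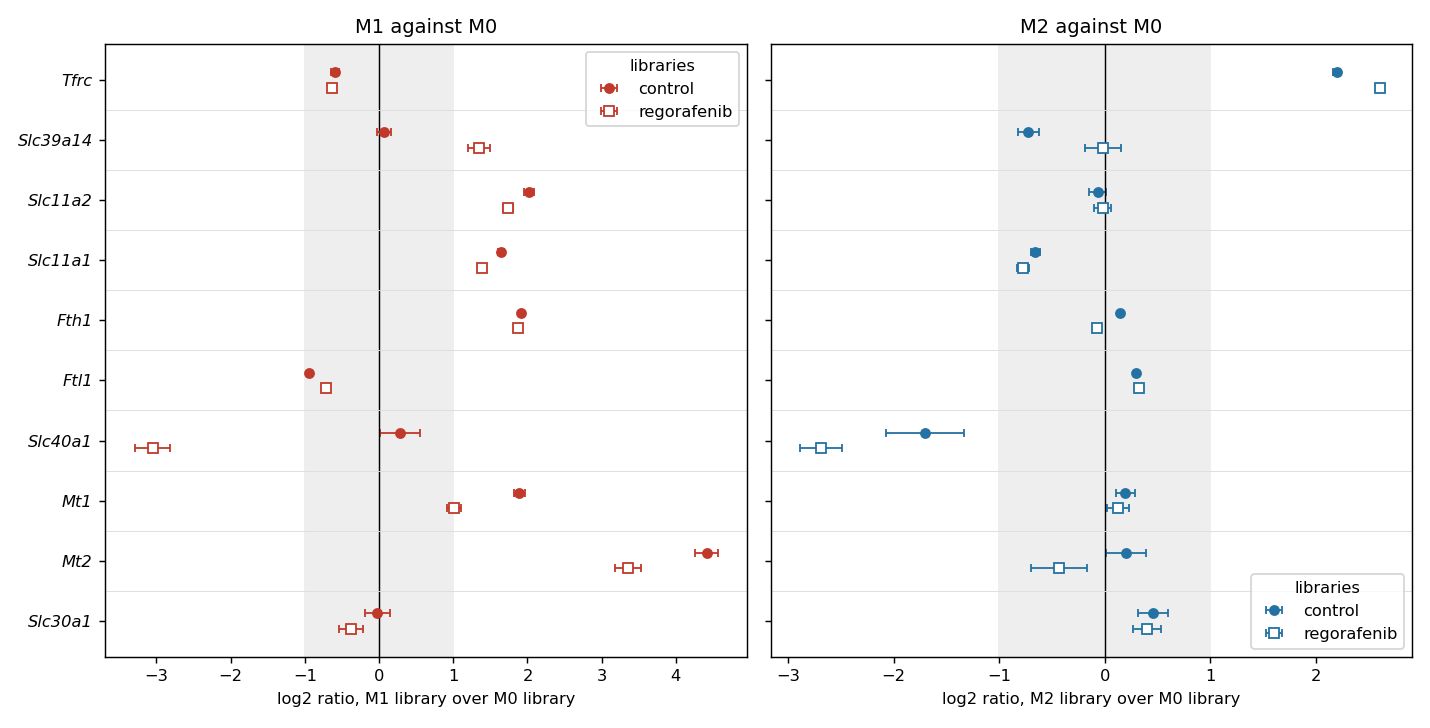
Log2 ratio of M1 (left) and M2 (right) to M0 for each gene, filled circles for the control pair and open squares for the regorafenib pair, with 95% counting intervals; the grey band spans an absolute log2 ratio under 1. Slc40a1 in M1 moved from 0.28 in control to -3.05 under regorafenib, and Tfrc in M2 was 2.20 and 2.61.

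A test was possible only for effects taken as common to all states or to both treatments. An additive model with state and treatment was fitted to the 6 libraries with edgeR's quasi-likelihood test, which leaves 2 residual degrees of freedom. Its residual is the unequal response of the states to the drug, not a spread between replicates. M1 against M0 passed a Benjamini-Hochberg adjusted p of 0.05 for 5 of the 10 genes, all higher, beside 18.5% of 14110 genes higher and 18.2% lower. In that test the adjusted p was 0.000794 for Mt2 (log2 change 3.94), 0.0011 for Slc11a2 (1.94), 0.00212 for Slc11a1 (1.58), 0.00477 for Fth1 (1.95) and 0.00712 for Mt1 (1.53). Ftl1 (-0.77, adjusted p = 0.0533 by edgeR) and Tfrc (-0.56, adjusted p = 0.0813) did not pass. Ftl1 passed as lower with DESeq2 (adjusted p = 0.000693) and, in edgeR, without a filter on low counts (adjusted p = 0.00655), as did Tfrc without that filter (adjusted p = 0.0484). Fits that leave out a library leave its state with 1 library and take their residual from the other states, so only effect sizes are given for them. Slc40a1 (-1.22, adjusted p = 0.281 by edgeR) was -2.32 without M0 control and -2.78 without M1 control. It was near 0 without M0 regorafenib (-0.14) or without M1 regorafenib (0.084). Slc39a14 (0.75, adjusted p = 0.116 by edgeR) was 1.27 without M0 control and 1.21 without M1 control. It was 0.26 without M0 regorafenib and 0.29 without M1 regorafenib. The M1 values of both genes thus rested on the regorafenib pair of libraries.

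M2 against M0 passed for 1 of the 10 genes, Tfrc (log2 change 2.42, adjusted p = 0.0274 by edgeR's quasi-likelihood test), beside 0.184% of genes higher and 0.0142% lower. Slc40a1 (-2.33) had an adjusted p of 0.407 there by edgeR, and 0.0247 by DESeq2. In edgeR it was -0.97 without M0 regorafenib and -3.14 without M0 control. Regorafenib across states passed for 0 of the 10 genes in edgeR and for 0% of all genes in either direction. At an unadjusted p under 0.05 there were 3 of the 10, Slc39a14 (-1.15), Mt2 (-0.95) and Mt1 (-0.60), and 1637 of all genes. DESeq2 on the same design called 2 of the 10, Slc39a14 (adjusted p = 0.0102) and Mt2 (adjusted p = 0.0199), and 301 of all genes. For Slc40a1 the change across states was 1.44 with an adjusted p of 0.448 in edgeR. The change was 2.36 without M1 control and likewise without M1 regorafenib. These are in effect the same fit, in which the drug effect rests on M0 and M2 alone. It leaves out the state where Slc40a1 was lower with the drug. The change was 0.63 and 0.64 without M0 control and without M0 regorafenib. Each of these fits leaves a state with 1 library, so only effect sizes are given.

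Other genes of iron, heme, zinc and copper handling were read from 11 lists of 85 genes besides the 10, of which 64 had at least 10 counts in a library. M1 against M0 in control called 16 of the 64 higher and 13 lower, beside 17.2% and 19.8% of all genes. The additive edgeR test of M1 called 19 of 63 higher and 12 lower, beside 18.5% and 18.2%. Of the 64, regorafenib against control called 9 higher and 2 lower for M0, beside 9.59% and 11% of all genes, 1 and 3 for M1, beside 2.49% and 4.16%, then 7 and 2 for M2, beside 6.73% and 5.43%. M2 against M0 in control called 1 higher and 4 lower, beside 4.95% and 8.03%.

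Among secreted proteins that bind iron carriers or heme proteins, Lcn2 and Hp had most of their counts in M1. Lcn2, lipocalin 2, which captures bacterial siderophores, had, control first, 7 and 12 counts for M0, 32293 and 38099 for M1, then 6 and 4 for M2. Hp, haptoglobin, which binds free hemoglobin, had 16 and 365 counts for M0, 6489 and 1429 for M1, then 4 and 26 for M2. Regorafenib thus stood above control for Hp in M0 (4.41) and below it in M1 (-2.08). Of the 4 tested genes in this list, 2 were called higher in M1 control than in M0 control, beside 17.2% of all genes, and 3 were called higher with regorafenib in M2, beside 6.73%, all with few counts. Cp, ceruloplasmin, the oxidase that works with ferroportin, had 1 and 11 counts in M0 and 2439 and 1609 in M1, and was at least 967-fold higher in M1 control than in M0 control when the floor of 3 counts was used. Among the 3 tested export genes, the heme exporter Abcg2 was called lower in M1 than in M0, at -2.28 in control and -1.86 under regorafenib. Flvcr1, another heme exporter, was within the threshold in control (-0.63) and called lower under regorafenib (-1.46).

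Of 7 tested genes of iron and heme uptake, 5 were called lower and 0 higher in M1 against M0 control, where 19.8% of all genes were called lower, with Steap3, the endosomal ferrireductase, at 1263 and 42 counts in M0 and M1 control (-4.66), Slc39a8, a metal importer related to Slc39a14, at -3.89, and Lrp1, the receptor for heme bound to hemopexin, at -1.41. The 2 within the threshold were Slc46a1 (-0.69) and the heme transporter Slc48a1 (0.64), which passed as higher in the additive edgeR test (0.59, adjusted p = 0.0468). Lrp1 was also lower with regorafenib in M0 (-1.02) and M2 (-1.07). Of 7 genes of heme breakdown, 3 were called higher in M1 control than in M0 control and 2 lower, beside 17.2% and 19.8% of all genes, with heme oxygenase Hmox1 at 2.39, biliverdin reductase Blvrb at 2.13, Blvra at -1.23 and Bach1, the repressor of Hmox1, at -1.26. Hmox1 had 35142 counts in M2 control and 10967 in M2 regorafenib, a log2 ratio of -1.30. It was also lower with the drug, within the threshold, in M0 (19640 and 11843 counts) and M1 (86691 and 47804 counts). Across states its change was -0.95 in the additive edgeR test (adjusted p = 0.302).

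Fbxl5, a gene of iron sensing, which targets an iron regulatory protein for degradation, was at 2.26 in M1 control against M0, and Hfe, a partner of Tfrc, at -2.30. Hfe was higher with regorafenib in M0 (1.10). Of the 5 tested genes of iron sensing, 2 were called higher and 1 lower in M1 control against M0 control, beside the same 17.2% and 19.8% of all genes. Ncoa4, the receptor that delivers ferritin to lysosomes for breakdown, was within the threshold in M1 but higher with regorafenib in M0 (2399 and 5886 counts, 1.19) and in M2 (2456 and 4664 counts, 1.31). Among 12 genes of mitochondrial iron and heme synthesis, 1 was called higher in M1 control than in M0 control, beside 17.2% of all genes, the mitochondrial iron importer Slc25a37 (3.01). The lower calls, beside 19.8% of all genes, included the heme synthesis enzyme Alad (-1.08).

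Of 10 tested zinc importers, M1 against M0 control called 1 higher (Slc39a4, 1.55) and 2 lower, with Slc39a10 at -2.38, where 17.2% of all genes were called higher and 19.8% lower. Of 5 tested zinc exporters, 2 were called higher in that comparison, Slc30a9 (1.35) and Slc30a7 (1.02). Total-count scaling, which shifts these ratios by -0.44, ends both calls. Mtf1, which encodes MTF-1, was the one tested gene of its list and stood at 0.89 in M1 against M0 control, short of the threshold, with a change of 0.84 in the additive edgeR test (adjusted p = 0.0132). Of 7 copper genes, 4 were called higher and 0 lower in M1 control, beside the same shares of all genes. These were the importers Slc31a1 (2.79) and Slc31a2 (3.39) and the copper pumps Atp7a (1.21) and Atp7b, which had 2 counts in M0 control and 137 in M1 control. The call of Atp7a also ends with total-count scaling. The other 3, Atox1 (-0.12), Ccs (-0.42) and Commd1 (-0.013), were within the threshold.

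Markers of other cells were checked beside these results, and their part in them was not tested. Of 8 erythroid markers, 7 were at 3 counts or fewer in every library, both alpha-globin genes and Alas2 were at 0, and the list summed to 2 to 6 counts per library. The 4 hepatocyte and 5 lymphocyte markers were at 3 counts or fewer throughout. All 8 macrophage markers were above 3 counts in every library, and their summed level was, control first, 30918 and 48726 CPM for M0, 31583 and 34053 for M1, then 21869 and 33539 for M2. Most of that sum was Lyz2, with 797716 and 1408918 counts in M0, and regorafenib in M0 called 1 of the 8 higher, Mertk (380 and 1230 counts), and 2 lower, Fcgr1 (3072 and 1184 counts) and Cd14 (31650 and 16464 counts), beside 9.59% and 11% of all genes. The 6 fibroblast markers summed to 3.19 and 10.2 CPM for M0, 9.10 and 6.85 for M1, then 3.56 and 5.76 for M2. Neutrophil markers summed to 84.8 and 158 CPM for M0, 157 and 110 for M1, then 88.8 and 132 for M2, mostly Mpo, with Ly6g at 0. Dendritic cell markers summed to at most 2.50 CPM in M0 and M2 and to 32.0 and 38.8 CPM in M1, mostly Ccr7. The M0 regorafenib library, where Slc40a1 was highest, also had the highest sum of macrophage markers, mostly Lyz2. Its neutrophil and fibroblast sums (158 and 10.2 CPM) were near those of M1 control (157 and 9.10 CPM), where Slc40a1 was at 9.29 CPM.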

How the data were processed

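Whole-number read counts per gene of 6 libraries were deposited by the authors, who trimmed reads of 2×100 bases with cutadapt 2.4, mapped them to GRCm38 with STAR 2.7.2a and counted them with STAR on Gencode M19. No normalization had been applied, and the totals of 25359309 to 34898342 counts differ between libraries. Libraries were made with a stranded mRNA kit, but STAR reports counts for each strand setting, and the setting deposited is not given in the sources used here.

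Names and positions came from Gencode M21 (GRCm38). Of 54446 gene IDs, 53229 matched with and 1180 without their version. Counts were scaled with TMM (edgeR 4.0.16, R 4.3.3). Log2 ratios used a count of 0 as 0.5, genes with at least 10 counts in 1 or more libraries, and the conditional exact binomial interval. With 1 library per condition these have no p-value. A library with 3 counts or fewer was taken as at the floor. For the additive model, edgeR's quasi-likelihood test was run after filterByExpr, with Benjamini-Hochberg adjustment, and DESeq2 1.42.0 was the alternative. The study's own no-replicate method was not used, since it rests on simulated replicates. The methods were tested on simulated data. CPM are TMM-scaled, and values per kilobase divide by the reference transcript's length.

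The genes and lists were chosen with earlier results of these data known. Genes named from the lists are those called where the higher library had at least 100 counts, at most 4 per list and comparison. Mtf1, Slc46a1, Slc48a1, Atox1, Ccs, Commd1, Flvcr1 in control, and single cell type markers were named outside that rule, after their values were seen. Alternatives were other scalings (DESeq2 size factors, total counts, upper quartile), no filter, 1 CPM added, thresholds of 1.5-fold and 4-fold, and leaving out each library. One listed gene had no row under its name. Results of 1 other listed gene are not reported here.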

Additional observations from a re-analysis of the deposited data

Results flagged for a closer look

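In 5 genes, the log2 ratio of regorafenib to control changed sign between states, or that of M1 or M2 to M0 changed sign with the drug. The counting intervals did not reach 0 on either side. The share of all genes that meet this rule was not taken. None of these differences was tested, because each value compares 1 library with another.

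Slc40a1 under regorafenib was above control in M0 (2.81) and in M2 (1.82) and below it in M1 (-0.52). Its ratio of M1 to M0 was 0.28 in control, with a range of -0.16 to 0.42 over the scalings, and -3.05 under regorafenib. Tfrc under regorafenib was -0.18 in M0, -0.22 in M1 and 0.23 in M2, and Slc11a2 was 0.094, -0.19 and 0.14. Fth1 under regorafenib was 0.024 in M0, -0.0057 in M1 and -0.20 in M2, and its ratio of M2 to M0 was 0.15 in control and -0.071 under regorafenib. The Fth1 value in M1 ran from -0.025 to 0.036 over the scalings. Mt2 in M2 against M0 was 0.20 in control and -0.43 under regorafenib. Except for Slc40a1, all of these lay under an absolute log2 ratio of 0.5.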

How the results depend on the processing

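With 1 library per condition, no ratio has a replicate check. The number of the 10 genes called in a pair of libraries moved by over 1.5 times only with the threshold. At 4-fold it was 1 for regorafenib in M0, 0 in M1 and 0 in M2, 2 for M1 against M0 in control and 2 under regorafenib, 1 for M2 against M0 in control and 4 for M1 against M2. At 1.5-fold it was 4 for M2 against M0 in control. The shares of all genes at these 2 thresholds were not taken, so the counts show only how the calls depend on the threshold. In the additive model, M2 against M0 called 3 of the 10 genes with DESeq2, beside 416 of all genes, where edgeR called 26 of all genes higher and 2 lower. Without a filter it called 2 of the 10. The added genes were Slc40a1 and, with DESeq2, Slc11a1. Regorafenib across states called 2 of the 10 with DESeq2, beside 301 of all genes, and 2 without a filter, Slc39a14 and Mt2 each time. With another scaling or 1 CPM added, single ratios stayed within their counting interval in 221 of 320 recalculations and moved beyond it in 99. The changes that passed in the additive model, 5 for M1 and 1 for M2, kept their direction in 54 of 54 recalculations. Some of these left out a library and so left a state with 1 library. No paired analysis was possible because each condition has 1 library, so replicate numbers pair nothing beyond the states, which the additive model already holds as a term.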
